A study of Mus musculus with 6 samples.

Results

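The loci of 6 STAT genes, Stat2, Stat3, Stat4, Stat5a, Stat5b and Stat6, were examined for accessible chromatin in mouse CD4 T cells. The assay was ATAC-seq, which marks open DNA by where the enzyme Tn5 can insert adapters. The 3 deposited peak lists were joined, any overlap of 1 bp or more making 1 region of the peaks concerned, and a region belonged to a STAT locus when it overlapped the RefSeq GRCm38 body of a member with 20 kb on each side. This gave 71 regions of 81315 in all. Naive CD4 T cells of C57BL/6 mice were untreated. Th17 cells were grown from such cells for 48 h or 72 h on plates with 0.25 µg/mL antibody to CD3ε and 1 µg/mL antibody to CD28, in 0.1 ng/mL TGF-β and 20 ng/mL IL-6, so time in culture, receptor stimulation and cytokines differ together from the naive state. Each condition has 2 libraries in the design and 1 peak list here, so the conditions have no replicate check and no test was run between them.

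STAT proteins are latent transcription factors. Cytokine receptors carry JAK kinases, which phosphorylate a STAT on a tyrosine, and the STATs then pair, enter the nucleus and bind DNA at sites that begin with TTC and end with GAA. In helper T cells STAT3 carries the signal of IL-6, IL-21 and IL-23 towards the Th17 fate, STAT5A and STAT5B that of IL-2 and IL-7, STAT4 that of IL-12 towards Th1, STAT6 that of IL-4 towards Th2, and STAT2 works with STAT partners and IRF9 downstream of type I interferon.

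Promoter sequences are shown because 5 of the 6 genes have a promoter window with a peak in every list. That share was not counted for other genes. The sequences are also shown because 2 related windows differ between the lists. RefSeq gives 9 promoter windows for the 6 genes on GRCm38.p6, each from 250 bases before to 50 after a transcription start, 2 for each of Stat4, Stat5a and Stat5b and 1 for each of the others. The starts are those of the RefSeq promoter table, and positions below count from the transcription start as 0. Each is printed 5′ to 3′ in the direction of the gene. In the Stat2 and Stat4 windows the capitals mark matches to a STAT site with a 4-base spacer or to an interferon response element, in the Stat3 window they mark CCAAT and GC boxes on either strand, and in the Stat5a and Stat5b windows a stretch that the pair share.
Stat2, chr10:128270248-128270547, plus strand: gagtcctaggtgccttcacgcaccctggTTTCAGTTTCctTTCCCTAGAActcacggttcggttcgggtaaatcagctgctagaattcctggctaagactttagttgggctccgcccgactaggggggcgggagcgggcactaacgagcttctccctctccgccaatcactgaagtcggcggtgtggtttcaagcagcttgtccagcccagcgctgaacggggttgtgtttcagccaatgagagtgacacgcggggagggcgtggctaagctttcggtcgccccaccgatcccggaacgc
Stat3, chr11:100939491-100939790, minus strand: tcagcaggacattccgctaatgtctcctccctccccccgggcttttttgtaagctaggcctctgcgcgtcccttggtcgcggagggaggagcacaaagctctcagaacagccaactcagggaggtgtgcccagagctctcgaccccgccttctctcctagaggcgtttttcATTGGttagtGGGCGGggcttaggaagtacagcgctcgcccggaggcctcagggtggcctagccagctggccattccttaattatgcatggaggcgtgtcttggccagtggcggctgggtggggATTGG
Stat4, second start, chr1:52007990-52008289, plus strand: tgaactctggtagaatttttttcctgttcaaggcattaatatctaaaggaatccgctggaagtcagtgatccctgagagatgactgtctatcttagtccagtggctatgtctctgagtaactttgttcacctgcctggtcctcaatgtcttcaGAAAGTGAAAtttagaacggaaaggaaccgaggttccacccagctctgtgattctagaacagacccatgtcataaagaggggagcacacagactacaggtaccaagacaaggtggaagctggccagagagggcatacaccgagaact
Stat5a, second start, chr11:100860234-100860533, plus strand: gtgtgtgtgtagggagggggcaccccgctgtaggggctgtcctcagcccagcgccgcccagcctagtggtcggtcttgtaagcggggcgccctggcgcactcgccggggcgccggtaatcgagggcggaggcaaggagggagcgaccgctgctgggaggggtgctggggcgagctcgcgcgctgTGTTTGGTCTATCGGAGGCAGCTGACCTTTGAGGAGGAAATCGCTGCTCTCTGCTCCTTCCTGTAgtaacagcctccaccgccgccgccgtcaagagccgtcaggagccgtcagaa
Stat5b, second start, chr11:100822521-100822820, minus strand: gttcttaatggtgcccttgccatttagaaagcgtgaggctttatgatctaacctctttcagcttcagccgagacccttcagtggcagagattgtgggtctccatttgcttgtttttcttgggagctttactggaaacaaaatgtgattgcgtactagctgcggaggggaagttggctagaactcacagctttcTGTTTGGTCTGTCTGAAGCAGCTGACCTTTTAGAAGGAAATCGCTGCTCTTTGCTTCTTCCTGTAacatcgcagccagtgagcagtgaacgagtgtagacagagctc

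The windows of the second Stat5a and the second Stat5b start shared a stretch of 65 bases without gaps, of which 58 (89.2%) were identical. It lay at -66 to -2 in Stat5a and at -57 to 7 in Stat5b, and its longest identical run was 16 bases. The other 35 pairs of member windows had longest identical runs of 7 to 11 bases. STAT5A and STAT5B are close paralogs whose genes lie side by side. The lists differed between these related windows. The Stat5a window carried a peak in every list, while the Stat5b window had none at 48 h and carried one in the other lists.

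Motifs were searched on both strands in the 9 member windows and in all 32851 windows of the table. The STAT site with TTC, any 3 bases and GAA was in 0 of the 9, and 8.3% of all windows hold it. The form with 4 bases between TTC and GAA was in 1 of the 9, the Stat2 window at -210 to -201, and in 6.95% of all windows. An interferon response element, searched as TTTC, any 2 bases and TTTC and chosen after the windows had been read, was in the Stat2 window at -222 to -213 and in the second Stat4 window at -97 to -88, and in 3.44% of all windows. In the Stat2 window these matches lie side by side without overlap. The AP-1 site TGANTCA was in 0 of the 9 and in 7.81% of all windows. The GC box GGGCGG was in 4 of the 9 (35.7% of all windows) and the CCAAT box in 3 (37.4%), and Stat2 and Stat3 held both. A match describes letters and is not evidence of binding.

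Of the 9 member windows, 5 had a peak in all 3 lists. The share of all windows with a peak in all 3 lists was not counted, so this is not a trait of these genes. A peak lay on 6 of the 9 member windows in naive cells, on 5 at 48 h and on 6 at 72 h, where 49.5%, 47.9% and 51.4% of all windows of protein-coding genes had one. Stat2, Stat3, Stat5a, Stat5b and Stat6 each had 1 window with a peak in all 3 lists. Stat4 had none: no list had a peak on either of its windows. The nearest region to its first start lay 11522 bp away, and the nearest to its second start began 123 bp downstream, was present in naive cells and at 72 h and was absent at 48 h. The first Stat5a window also had no peak in any list. GC content was 46.0% at the second Stat4 start, 82.7% at the first Stat5b start and 52.7% for the median window of the table.

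Over the 71 regions, 23 (32.4%, exact 95% interval 21.8 to 44.5%) had a peak in all 3 lists, against 25.6% of all merged regions. Another 17 (23.9%, 14.6 to 35.5%) were in naive cells only, against 28.8%, 8 (11.3%, 4.99 to 21.0%) were in both Th17 lists but not in naive cells, against 13.1%, and 13 (18.3%, 10.1 to 29.3%) were at 72 h only, against 18.3%. Among the rest, 5 were missing only from the 48 h list, 2 only from the 72 h list, and 3 were found at 48 h alone. The 4 genome-wide shares given each lie within the interval of the STAT loci. The intervals cover counting error only. Of the 71 regions, 50 overlapped a member body and 21 lay in the flanks. Inside the bodies 14 (28.0%) were naive-only and 12 (24.0%) were in all 3 lists. In the flanks 3 (14.3%) were naive-only and 11 (52.4%, 29.8 to 74.3%) were in all 3, where the genome-wide share was 25.6%. Many of these 11 lie in the Stat6 window, which had 7 of its 9 regions in all 3 lists and only 1 region on its body. The interval treats neighbouring regions as independent, so it does not describe STAT flanks in general. Promoter windows of neighbouring genes held 5 of the flank regions, 4 of them in all 3 lists. A gene past the end of Stat4 was left out of this count.

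**Figure D1:**
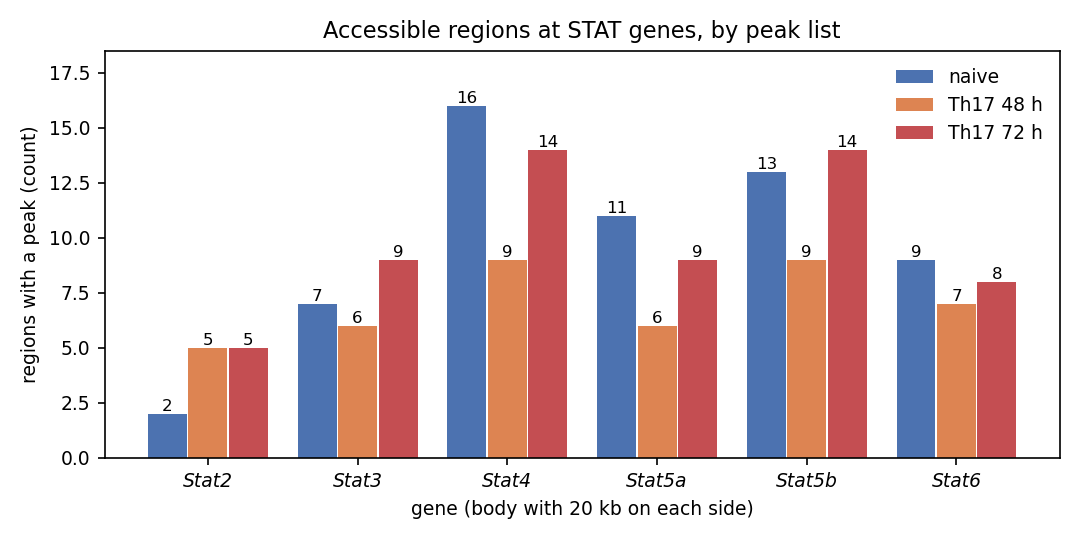
Number of regions with a peak at each STAT gene (vertical axis, count) in the naive, 48 h and 72 h lists, with 1 list per condition and no error. Stat2 has 2, 5 and 5 regions and Stat4 has 16, 9 and 14, and regions in overlapping windows are counted for each gene.

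The comparison of Th17 cells at 48 h with naive cells asks how these loci differ early in the culture. At 48 h 11 regions were gained, that is present at 48 h and absent from the naive list, 22 were lost and 25 were shared. As shares of the 58 regions in either list, gains were 19.0% (9.87 to 31.4%) and losses 37.9% (25.5 to 51.6%), where the genome had 21.9% gained, 43.7% lost and 34.5% shared. Losses outnumbered gains over the genome too, and the STAT shares lie near that background. The 48 h list is the shortest. When each list was held to its widest 40624 peaks, the STAT loci had 14 gained, 13 lost and 22 shared regions. The genome then had 16470 gained (29.3%), 18756 lost (33.4%) and 20963 shared.

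At 72 h 21 regions were gained relative to naive cells, 19 were lost and 28 were shared. Gains were 30.9% (20.2 to 43.3%) and losses 27.9% (17.7 to 40.1%) of the 68 regions in either list, against 33.0% and 33.0% over the genome, with 34.1% shared. The 48 h and 72 h values rest on 1 naive list that they share, and a peak missing from it counts as a gain in each. At 72 h relative to 48 h the loci had 18 gained, 5 lost and 31 shared regions of 54, or 33.3%, 9.26% and 57.4%, against 35.3%, 10.3% and 54.4% over the genome. Held to 40624 peaks per list, these counts were 9 gained, 10 lost and 26 shared. The genome then had 11311 gained (23.2%), 9342 lost (19.2%) and 28091 shared.

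**Figure D2:**
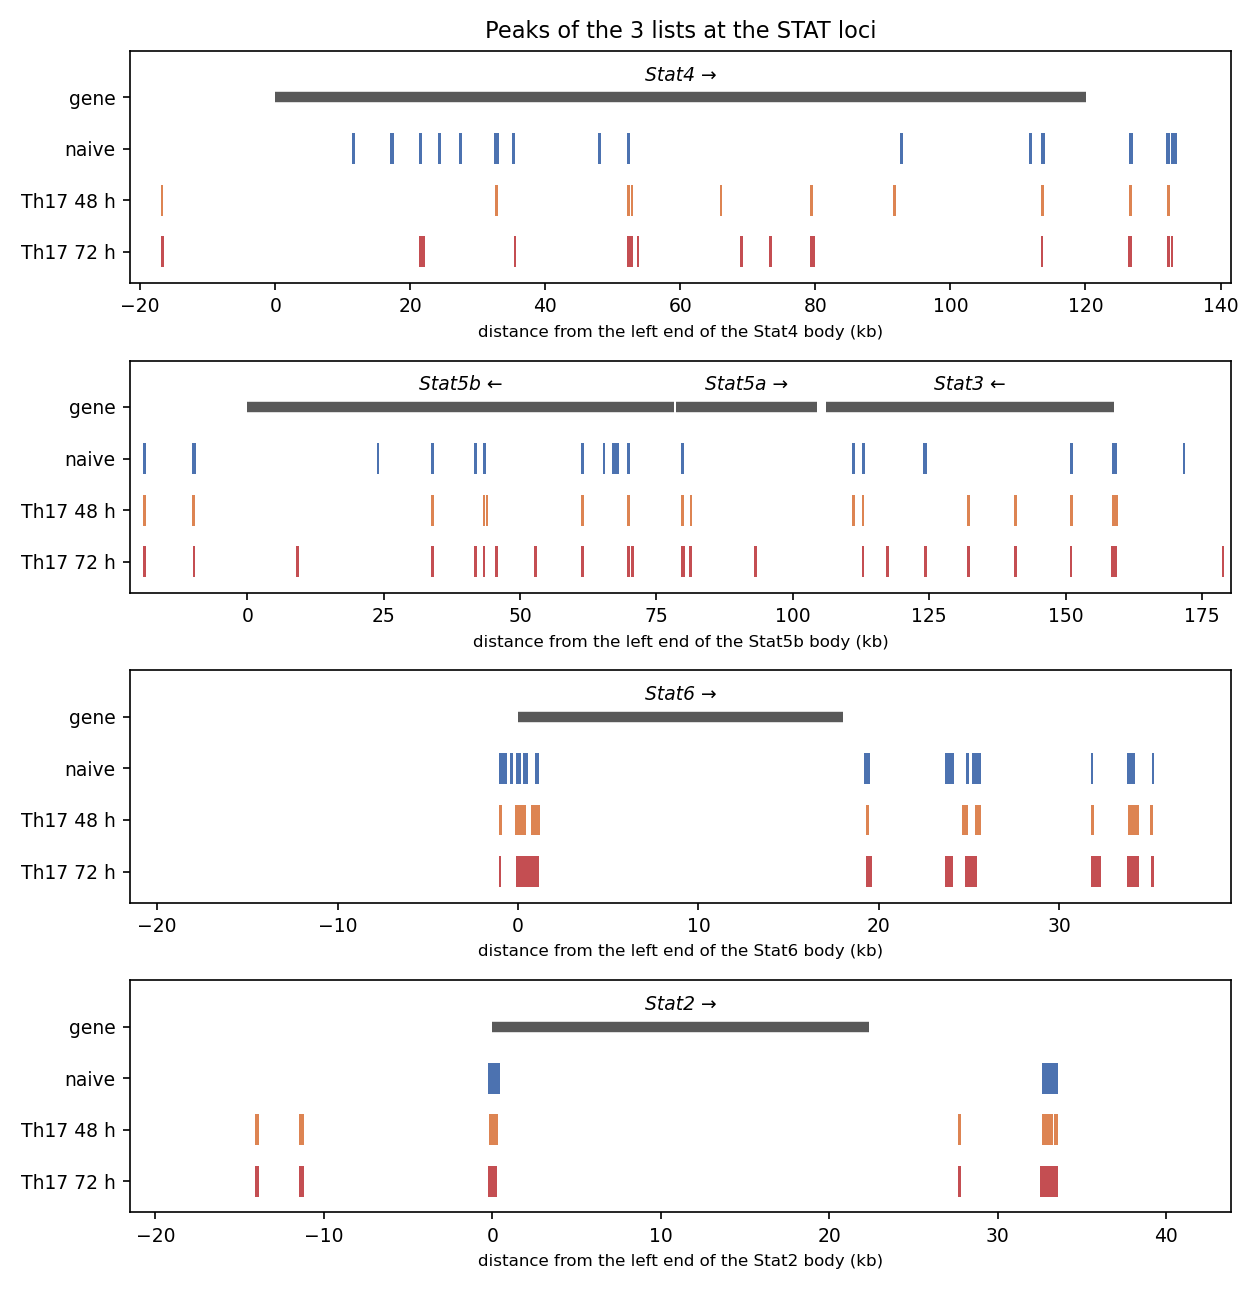
Peaks of the naive, 48 h and 72 h lists (coloured blocks, 1 row per list) along the STAT loci, with gene bodies as dark bars, arrows for the direction of transcription and distance in kb on the horizontal axis. Very narrow peaks are drawn at a minimum width so that each can be seen. Stat4 has naive peaks towards its start that are absent from the Th17 lists, Stat2 has 3 regions in the Th17 lists that are absent from the naive list, and Stat6 has its peaks at the promoter and downstream of the body.

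Stat3 encodes the STAT that IL-6, 1 of the cytokines of this culture, activates. The gene lies on chromosome 11 from 100886806 to 100939594 on the minus strand, and its window held 7 regions in naive cells, 6 at 48 h and 9 at 72 h. The promoter region, from 100939136 to 100940287, was present in every list. Its peak was 964 bp wide in naive cells, 1089 bp at 48 h and 1078 bp at 72 h. A score is the authors' value for each peak, on a scale that no header states, and the naive list has none. Percentiles of scores and widths are ranks within 1 list, with ties at their middle rank. The score here was 244 at 48 h, at percentile 98.0, and 289 at 72 h, at percentile 96.0.

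Inside Stat3 the Th17 lists held a pair of regions that the naive list lacked. The one from 100921346 to 100921727, 18.0 kb into the gene, was 330 bp wide with a score of 190 at 48 h, at percentile 93.1, and 376 bp wide with a score of 181 at 72 h, at percentile 84.2. It had the highest 48 h score of the 8 STAT regions present in both Th17 lists and absent from naive cells. The other, from 100912803 to 100913043 and 26.6 kb into the gene, was weaker, with scores of 42 at 48 h and 84 at 72 h. A region 41.4 kb into the gene, from 100898050 to 100898186, was at 72 h only with a score of 76.

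Other parts of Stat3 were narrower or missing in Th17 cells. The region 7.8 kb into the gene, from 100931505 to 100931998, had a peak of 494 bp in naive cells, 150 bp at 48 h and 121 bp at 72 h. The region from 100891684 to 100892003 near the end of the gene was 320 bp wide in naive cells and 129 bp at 48 h, with no peak at 72 h. A region 12696 bp upstream of the body, from 100952290 to 100952627, was naive-only with a width of 338 bp. The exons could not be told from introns, because the gene table gives body ends only.

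Stat5b, Stat5a and Stat3 lie next to each other in 159 kb, with 346 bp between Stat5b and Stat5a and 1636 bp between Stat5a and Stat3. Their windows overlap, so 14 regions belong to 2 of the genes and 1 region to all 3, and the genes are not independent counts. The cluster as a whole had 31 regions, with 20 in naive cells, 15 at 48 h and 22 at 72 h, and 10 of them were in all 3 lists. Relative to naive cells it had 4 gained and 9 lost at 48 h, and 10 gained and 8 lost at 72 h. As shares these were 16.7% and 37.5% at 48 h, against 21.9% and 43.7% over the genome, and 33.3% and 26.7% at 72 h, against 33.0% and 33.0%.

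At Stat5b, from 100780731 to 100859004 on the minus strand, there were 13 regions in naive cells, 9 at 48 h and 14 at 72 h. The promoter region from 100850312 to 100850836 was in every list, at 430 bp in naive cells, 393 bp at 48 h and 525 bp at 72 h. The first start lies at 100850581, well inside the body, and distances at Stat5b run from it. The next 4 regions into the gene, 2.0 to 4.5 kb from that start, were all naive-only, with widths of 100, 261, 100 and 449 bp. The peaks of 100 bp had the smallest width that the naive list holds, and that of 449 bp was at percentile 72.3.

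The highest 72 h score inside the Stat5b body was that of the region from 100814454 to 100814937, 35.9 kb from the first start. Its peak was 319 bp wide in naive cells, 152 bp at 48 h with a score of 82, and 484 bp at 72 h with a score of 170. The region at the second start, from 100822378 to 100822754, was 377 bp wide in naive cells and 155 bp at 72 h. Within the Stat5b body 4 regions were at 72 h only, with scores of 41 to 74, and 1 was at 48 h only with a score of 67. The 72 h region from 100851281 to 100851426 lay upstream of the first start. A naive-only region of 453 bp lay 45.9 kb from the first start, from 100804434 to 100804886.

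At Stat5a, from 100859351 to 100885169 on the plus strand, the window held 11 regions in naive cells, 6 at 48 h and 9 at 72 h, but its body overlapped 3. The promoter region from 100860188 to 100860844 was present throughout, with a peak of 525 bp in naive cells and 501 bp at 48 h with a score of 105. At 72 h it held 2 peaks, of 424 and 128 bp, that covered 552 bp with a highest score of 194. A region 1553 bp past the second start, from 100861877 to 100862197, was in both Th17 lists only, with scores of 70 at 48 h and 55 at 72 h. The last, from 100873800 to 100873911, was at 72 h only, and its score of 38 was at percentile 11.6. The other 12 of its 15 regions overlap the bodies of Stat5b or Stat3.

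Stat4, on chromosome 1 from 51987106 to 52107189 on the plus strand, encodes the STAT of the IL-12 response and had the most regions of the 6 genes. It held 16 regions in naive cells, 9 at 48 h and 14 at 72 h, or 26 in all. These counts include 3 regions that overlap another protein-coding gene past the end of Stat4, all 3 with a naive peak, 1 with a 48 h peak and 2 with a 72 h peak. Without flanks Stat4 had 12 regions in naive cells, 6 at 48 h and 10 at 72 h. At 48 h 4 were gained, 11 lost and 5 shared relative to naive cells, and at 72 h 8 were gained, 10 lost and 6 shared. Of all protein-coding genes with a region, 98.8% had fewer regions and 2.1% had a lower balance of gains and losses at 48 h, while at 72 h 12.5% had a lower one. A gene with many regions can have a large balance for that reason.

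The naive peaks of Stat4 lay mainly towards its start. From the start to the middle of the body 12 regions were counted, 9 of them in naive cells, 2 at 48 h and 5 at 72 h, and 6 were naive-only. From the middle to the end 9 regions were counted, 3 in naive cells, 4 at 48 h and 5 at 72 h. The split at the middle of the body was chosen after the positions had been seen. The widest naive-only region of the locus was 494 bp from 52004153 to 52004646, 17.3 kb from the first start and at -3840 bp from the second. A region of 638 bp in naive cells, from 52019577 to 52020214, had a peak of 289 bp at 48 h with a score of 61 and none at 72 h.

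Th17 cells had other Stat4 regions. The one from 52039262 to 52040079, 52.5 kb into the gene, was present throughout but had a naive peak of 126 bp, against peaks of 705 bp in all at 48 h with a highest score of 124 and 781 bp at 72 h with a score of 113. Its width at 72 h was 6.2 times the naive width, the highest ratio among the 23 STAT regions in all 3 lists. The opposite case was the region from 52100447 to 52101088, with 642 bp in naive cells, 145 bp at 48 h and 152 bp at 72 h. That ratio of 0.237 was the lowest of the 23.

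The region of the Stat4 locus with the highest 72 h score among those absent from naive cells lay outside the gene, 16604 bp upstream of the body, from 51970225 to 51970502. Its score was 102 at 48 h, at percentile 70.4, and 272 at 72 h, at percentile 94.8. The 72 h score was also the highest 72 h score among the 8 STAT regions of both Th17 lists that naive cells lacked. Inside the gene, the region from 52055927 to 52056333 was at 72 h only with a width of 407 bp and a score of 142, the highest of the 13 STAT regions at 72 h only. The region from 52066348 to 52066658 was in both Th17 lists with scores of 97 at 48 h and 100 at 72 h. Downstream, a region 6155 bp past the body, from 52113344 to 52114097, was in every list with scores of 150 at 48 h and 232 at 72 h. The highest 72 h score of the locus, 336 at percentile 98.1, was that of a region 11849 bp past the body, 1 of the 3 that overlap the other gene, which was in every list and had a score of 114 at 48 h.

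**Figure D3:**
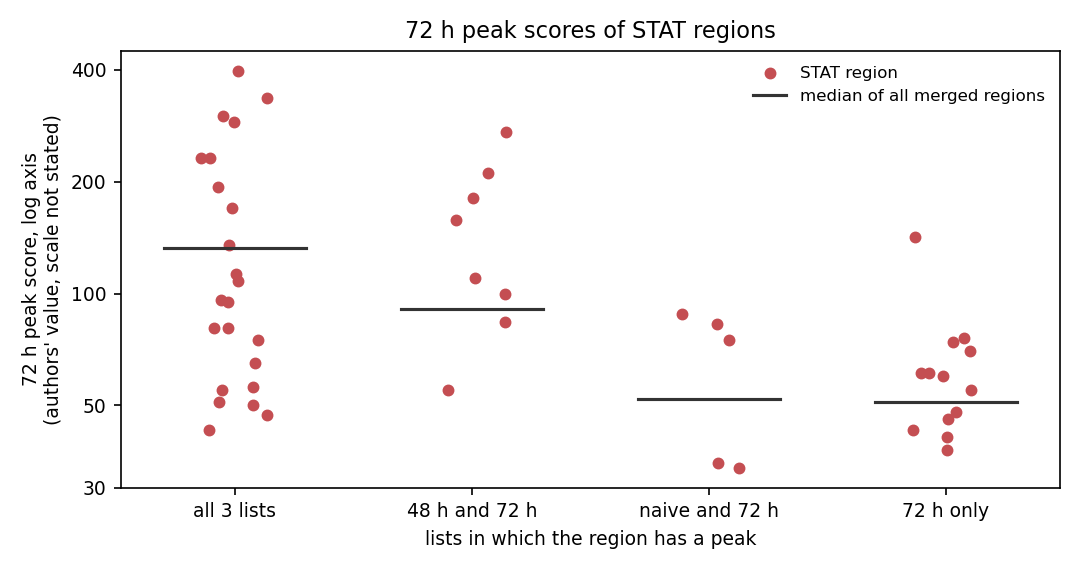
Score of the 72 h peak (vertical log axis, the authors' value on a scale not stated) for the STAT regions, by the lists in which the region has a peak, with the median of all merged regions of that kind as a bar. Of the 8 STAT regions in the 48 h and 72 h lists only, 6 lie above the bar of 91, of the 13 at 72 h only 8 lie above the bar of 51, and of the 23 in all 3 lists 9 lie above the bar of 133.

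Stat6, which carries the IL-4 signal, had 7 of its 9 regions in all 3 lists, where 25.6% of all merged regions were in all 3. It lies on chromosome 10 from 127642955 to 127660987 on the plus strand, with 9 regions in naive cells, 7 at 48 h and 8 at 72 h. These counts also occurred at 20 other protein-coding genes. No region was gained in either comparison with naive cells, where the genome had 21.9% gained at 48 h and 33.0% at 72 h. The promoter region from 127642803 to 127644169 was the only one inside the body. In it 3 naive peaks covered 724 bp, 2 peaks at 48 h covered 1067 bp with a highest score of 182, and 1 peak at 72 h covered 1278 bp with a score of 135. Just upstream, the region from 127641883 to 127642352 had a peak of 470 bp in naive cells, 179 bp at 48 h and 121 bp at 72 h, and a 196 bp region between them was naive-only.

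The other Stat6 regions lay downstream, in and around Nab2, which encodes a corepressor of EGR factors, and Nemp1, a nuclear envelope protein. The region from 127676709 to 127677394, on the Nemp1 promoter window, was in every list with scores of 143 at 48 h and 231 at 72 h. The one from 127666602 to 127667128, on the Nab2 promoter window, was in naive cells at 516 bp and at 72 h at 482 bp, with no peak at 48 h. Between them, the region from 127674692 to 127675289 was 139 bp wide in naive cells, 108 bp at 48 h and 571 bp at 72 h. Accessibility in these windows cannot be assigned to Stat6 over its neighbours from the lists.

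With 20 kb flanks Stat2 had more regions in Th17 cells than in naive cells at both times, but with 50 kb flanks it had 8 at each Th17 time against 9 in naive cells. It lies on chromosome 10 from 128270498 to 128292853 on the plus strand, with 2 regions in naive cells and 5 at each Th17 time, so 3 were gained and 0 lost. Its promoter region from 128270222 to 128270942 was 721 bp wide in naive cells, 569 bp at 48 h and 560 bp at 72 h. Its score of 294 at 48 h was at percentile 99.5 and its score of 398 at 72 h at percentile 99.4, the highest of the 71 regions at each time. The region also lies within the body of Apof, which encodes an apolipoprotein.

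The 3 gained regions all lay outside the Stat2 body. One, from 128298131 to 128298321, lay 47 bp from the body of Il23a, which encodes the p19 chain of IL-23, the cytokine that sustains Th17 cells through STAT3. It was 177 bp wide with a score of 84 at 48 h and 191 bp wide with a score of 158 at 72 h. The others lay upstream, between Apon and Apof. That from 128256433 to 128256661 had scores of 64 at 48 h and 211 at 72 h, and that from 128259002 to 128259306 had 63 at 48 h and 110 at 72 h. The last Stat2 region, from 128303019 to 128304071, covered the Pan2 promoter window in every list, with scores of 216 at 48 h and 300 at 72 h. Without flanks Stat2 had 1 region in each list, so the gain lies in the flanks.

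Peak width gives a second measure for the 23 regions in all 3 lists. Where a list has several peaks in a region their widths are summed, here and over the genome. At 72 h 13 of them (56.5%, 34.5 to 76.8%) were wider than in naive cells, where 32.3% of all regions in all 3 lists were wider. The median ratio of 72 h to naive width was 1.06 at the STAT loci and 0.883 over the genome. At 48 h 6 (26.1%, 10.2 to 48.4%) were wider than in naive cells, against 20.4%, and 16 (69.6%, 47.1 to 86.8%) were wider at 72 h than at 48 h, against 70.8%. Of the 5 on a member promoter window 4 were wider at 72 h than in naive cells, and of the other 18, 9 were. At the Stat5a promoter this holds only for the sum of 72 h peaks of 424 and 128 bp, against 525 bp in naive cells. At the Stat6 promoter the naive sum leaves out gaps between peaks. The naive peaks there ran from 127642829 to 127644115, and the 72 h peak from 127642829 to 127644106. In the region from 127667590 to 127668624, naive peaks ran from 127667804 to 127668605 and the 72 h peak from 127667751 to 127668406. Measured with the gaps, neither region was wider at 72 h. Width depends on read depth, which the lists do not give, and its part in these differences was not tested.

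**Figure D4:**
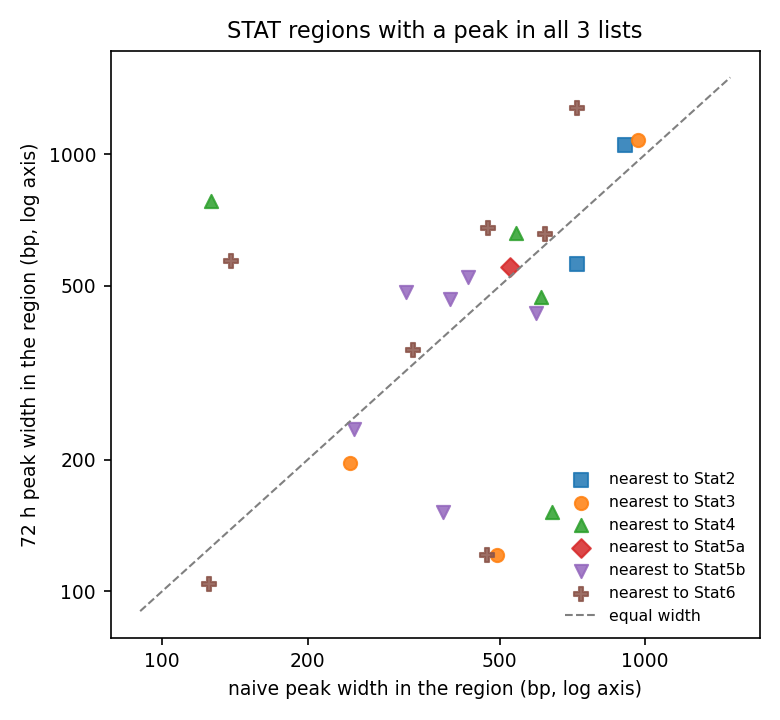
Width of the 72 h peaks (vertical log axis, bp) against that of the naive peaks (horizontal log axis, bp) in the 23 STAT regions with a peak in all 3 lists, with markers for the nearest member and a dashed line for equal width. Widths are summed where a list has several peaks in a region. The 13 points above the line are wider at 72 h, and the Stat4 region at 126 bp in naive cells and 781 bp at 72 h lies farthest above it.

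The score and width of the regions varied with the lists that held them. The 72 h score had a median of 96 in the 23 regions of all 3 lists, 134 in the 8 of both Th17 lists, 75 in the 5 of naive cells and 72 h and 60 in the 13 at 72 h only. The same medians over all merged regions were 133, 91, 52 and 51. Naive-only STAT regions had a median width of 196 bp, against 193 bp for all naive-only regions, and 12 of the 17 were narrower than the median naive peak.

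The other genes of the JAK-STAT pathway were taken with the same 20 kb flanks, in 4 lists with 47 genes in all. A region in the windows of several genes counts for each, so genes near each other are not independent counts. Of the 18 cytokine receptor genes, 1 had more gained than lost regions at 48 h relative to naive cells and 16 had more lost, and at 72 h 3 had more gained and 11 more lost. Over all 17272 protein-coding genes with a region, 20.3% had more gained and 54.6% more lost at 48 h, and 36.6% more gained and 39.8% more lost at 72 h. Ifngr1, a chain of the interferon-γ receptor, had 2 regions at 48 h and 3 at 72 h, against 10 in naive cells. Il21r, the receptor for IL-21, had 5 at 48 h against 11 in naive cells, and Il10ra, a chain of the IL-10 receptor, had 2 at 72 h against 8 in naive cells. Il6ra, the binding chain for IL-6, had 9 in naive cells, 6 at 48 h and 11 at 72 h, and Il10rb had 8 in naive cells, 4 at 48 h and 8 at 72 h.

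The 4 JAK kinase genes all had more lost than gained regions at 48 h, and at 72 h 1 had more lost and 3 had equal numbers. Jak1, which serves most of these receptors, had 9 gained and 13 lost at 48 h and 11 of each at 72 h. Jak3, the partner of the common γ chain, had 4 regions at 48 h and 8 at 72 h, with 8 in naive cells, and Tyk2 had 1 gained and 2 lost at 72 h. Of the 9 inhibitor genes, 4 had more gained and 5 more lost at 48 h, and 3 and 4 at 72 h. Cish, an inhibitor that STAT5 induces, had 11 regions at 48 h and 12 at 72 h, against 6 in naive cells, with 0 lost. Ptpn2, a phosphatase of JAKs and STATs, had 10 at 72 h against 4 in naive cells. Ptpn6 had 9 at 48 h against 12 in naive cells, and Ptpn11 had 4 in naive cells, 6 at 48 h and 3 at 72 h.

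Of the 16 partner and target genes, 8 had more gained and 8 more lost at 48 h, and 9 and 7 at 72 h. Il17a, a STAT3 target and the cytokine that names these cells, had 5 regions at 48 h and 8 at 72 h, against 0 in naive cells. Rora, a nuclear receptor of Th17 cells, had 17 gained and 9 lost at 48 h and 20 gained and 10 lost at 72 h. Bcl2, a survival gene, had 14 at 48 h and 22 at 72 h, against 24 in naive cells, and Irf4 had 14 in naive cells, 6 at 48 h and 10 at 72 h. The median balance of gained minus lost regions at 48 h was -3 for the receptors, -3.5 for the kinases, -1 for the inhibitors, 0 for the partners and targets and -3 for the 6 STAT genes, against -1 over all genes. At 72 h it was -1.5, 0, 0 and 1.5 for the lists, 0 for the STAT genes and 0 over all genes.

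**Figure D5:**
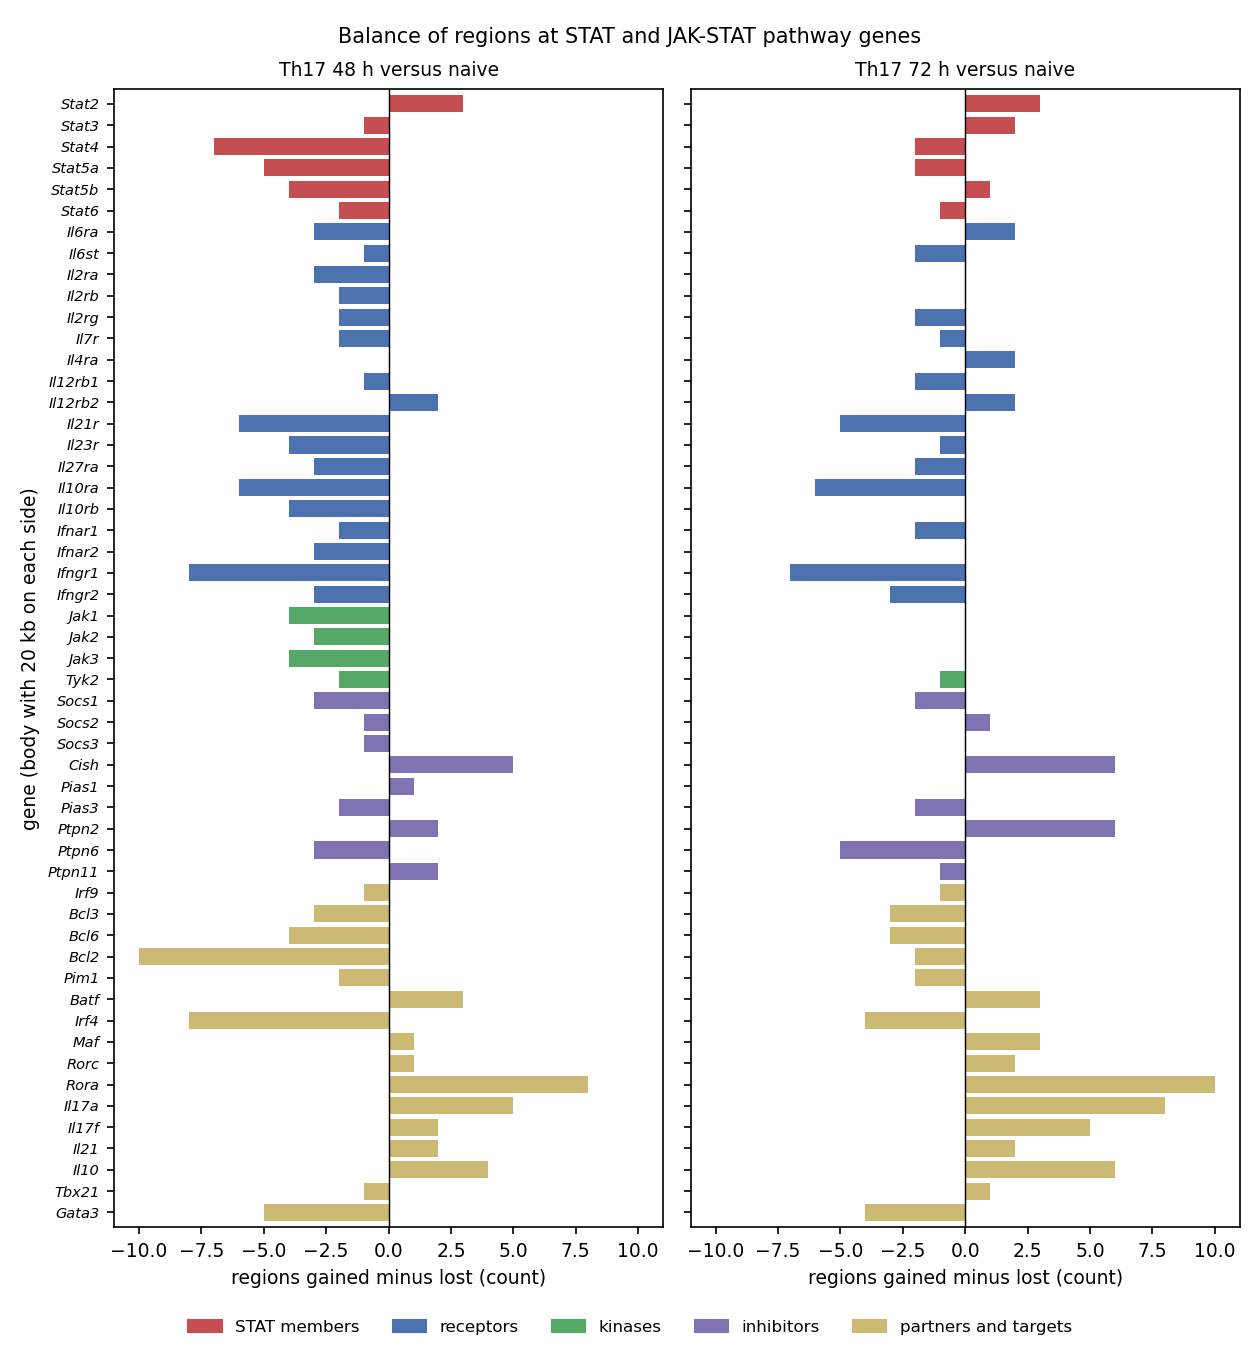
Number of regions gained minus lost relative to naive cells (horizontal axis, count) at 48 h (left) and 72 h (right), for the 6 STAT genes and the 47 pathway genes (vertical axis, coloured by list), with 1 list per condition and no error. Among the STAT genes Stat2 is at 3 in both panels, and Stat4 is at -7 at 48 h and -2 at 72 h.

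The 7 T cell marker genes that the gene table holds, Cd4 and the CD3 chains among them, had regions in every list. Summed over the genes there were 77 in naive cells, 45 at 48 h and 53 at 72 h. In all marker sums a region near several genes counts for each. Il17a and Il17f had 0 regions in naive cells. Of the markers of other cells, regions were found in each list at 5 of 6 B cell genes, 3 to 5 of 6 myeloid genes and 5 of 6 CD8 and NK genes, where 72.4% of all protein-coding genes had a region in naive cells, 73.7% at 48 h and 76.6% at 72 h. Their summed regions were 18 in naive cells, 13 at 48 h and 14 at 72 h for myeloid cells and 23, 17 and 19 for CD8 and NK cells. For B cells the sums were 19, 22 and 33, of which Ebf1 had 4, 9 and 18 and the other 5 genes 15, 13 and 15. Ms4a1, Lyz2 and Ncr1, which mark B, myeloid and NK cells, had 0 in every list, and Csf1r and Adgre1 had 0 in naive cells. Their part in the results was not tested. The lists hold 53259 naive peaks, 40624 at 48 h and 53926 at 72 h, of which 50, 41 and 50 lay at the STAT loci.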

How the data were processed

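ATAC-seq libraries were made from naive, Th17 48 h and Th17 72 h mouse CD4 T cells, with 2 libraries per condition in the labels. The deposited data analysed here are 3 peak lists without headers, each tied to 1 sample by the file records. Tools and builds, per the submitters' processing notes, include MACS2 2.2.6, deepTools, SAMtools 1.9, Bowtie2 2.3.4.1 and mm10 (GRCm38). Peak threshold, read shift, filters and any pooling of libraries were all not given in the sources used here. Deposited lists for 48 h and 72 h hold a peak score from 30 upward, made by the authors on a scale no header states. It was ranked only within its own list. From the naive list, 1 line that holds no values was dropped. Read depth is unknown.

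Peaks were merged with Python 3.11.15 (pandas 2.3.3), shares have exact Clopper-Pearson 95% intervals (scipy 1.17.1), and merging was tested on simulated data. Genes and promoter sequences are from RefSeq GRCm38.p6, where all 6 members matched. Coordinates are 1-based on GRCm38/mm10, and gene distances run from the middle of a region to the first start given. Members, gene lists and comparisons were chosen with earlier results of these data known. Pathway genes named are, per list and comparison, the 2 with the largest absolute balance of gains and losses, ties going to more regions and then to symbol order, and all members are named. The interferon, GC and CCAAT motifs, the middle-of-body split and the promoter-pair comparison were chosen after values were seen. Flanks, peak filters and overlap were varied.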

Additional observations from a re-analysis of the deposited data

How the results depend on the processing

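The 7 alternatives to 20 kb flanks, all peaks and 1 bp overlap were run for the counts at 48 h and 72 h relative to naive cells and at 72 h relative to 48 h. With no flank, 48 h had 7 gained and 14 shared, 72 h had 15 shared, 72 h relative to 48 h had 16 shared, and 12 regions were in all 3 lists. With 10 kb flanks none of these counts moved by over 1.5 times. With 50 kb flanks 72 h had 30 lost, which turned the balance to -3, and 72 h relative to 48 h had 9 lost. With only the wider part of each list (median width or more), 48 h had 11 shared, 72 h had 11 gained, 12 lost and 16 shared (balance -1), 72 h relative to 48 h had 11 gained, 3 lost and 16 shared, and 10 regions were in all 3 lists. With the widest 40624 peaks of each list, 48 h had 13 lost (balance 1) and 72 h relative to 48 h had 9 gained and 10 lost (balance -1). Where peaks had to share 0.5 of the narrower one, 72 h relative to 48 h had 8 lost. With only Th17 peaks at or above the median score of their list, a setting that removes Th17 peaks alone, 48 h had 6 gained and 15 shared, 72 h had 9 gained, 30 lost and 17 shared (balance -21), 72 h relative to 48 h had 9 gained and 17 shared, and 13 regions were in all 3 lists. The other 43 values of these counts stayed within 1.5 times. Of the further values, the counts by gene and the balances, 36 kept within it, 34 moved and the 5 balances named changed sign. Fewer peaks or a narrower window give fewer regions by construction, and other causes were not tested. No paired analysis was possible because each condition has 1 peak list, and for the same reason no replicate could be left out. The number of reads behind a peak is unknown, so a missing peak is not evidence of closed chromatin.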

Other observations

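Among protein-coding genes, the one whose numbers of naive, 48 h and 72 h regions were nearest to those of Stat4 (16, 9 and 14) was Elf1, an ETS-family factor, with 15, 9 and 14 regions. This compares counts in 3 lists only.

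At Stat3 the farthest region inside the 20 kb flank lay 19851 bp from the body and was at 72 h only, and the nearest outside lay 24609 bp away and was in both Th17 lists. At Stat5b the farthest inside lay at 18611 bp and the nearest outside at 20585 bp, and both were in all 3 lists.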
